A study of Mus musculus with 9 samples.

Results

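The Notch receptors Notch1 to Notch4, the ligands Jag1, Jag2, Dll1 and Dll4, and the target genes Hes1 and Hey1 were read in cells of a mouse intrahepatic cholangiocarcinoma line with and without a CRISPR/Cas9 cut in Vcam1, the gene of a cell surface adhesion molecule. The 10 genes were taken by symbol from a table of 55276 gene symbols, and all 10 passed the filter on low counts, as did 17672 symbols in all. The line, PPTR, came from mouse liver tumors that carried an inducible Prom1-driven Cre (Prom1CreERT2), floxed alleles and the reporter Rosa-ZsGreen, and the control and knockout cells share all of these alleles. RNA-seq was made from control cells, labelled WT, and from 2 single-cell clones, Vcam1KO1 and Vcam1KO2 (KO1 and KO2 below), with 3 libraries for each. The guide lay on exon 2 of Vcam1, and the 3 libraries of a group were collected from different passages of 1 culture or 1 clone. Where single groups were compared, a p-value therefore measures the spread between passages of a culture. Where the 6 knockout libraries were joined, the spread also holds the difference between 2 clones, which are not 6 independent knockouts. A difference between KO1 and KO2 cannot be told apart from any other difference between 2 clones. All cells were grown in medium with serum.

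Notch receptors sit in the cell membrane and are bound by Jagged and Delta-like ligands on a neighboring cell. Binding lets an ADAM protease and then gamma-secretase cut the receptor, and the freed intracellular part joins RBPJ and a Mastermind-like protein in the nucleus, where genes of the Hes and Hey families are switched on. In the liver the pathway is best known for Jag1 and Notch2, which are needed to form bile ducts, and Notch activity is a known trait of intrahepatic cholangiocarcinoma. Messenger RNA levels do not show how much receptor was cut.

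Across the 10 genes, both Jagged ligands fell strongly and to a like level in the 2 clones, Notch1 rose in both, and the other receptors, the Delta-like ligands and Hey1 took different courses in KO1 and KO2. Levels are given in CPM, the unit in which a count is divided by the TMM-scaled size of its library, for libraries 1, 2 and 3 of each group. Genes were tested with the quasi-likelihood test of edgeR and p-values were adjusted by Benjamini-Hochberg over all 17672 genes, and a gene was called at an adjusted p under 0.05. Vcam1 itself was read first as a check of the labels. It stood at 248, 221 and 329 CPM in WT, at 98.8, 92.4 and 128 CPM in KO1 and at 119, 99.4 and 83.0 CPM in KO2, so every knockout library lay below every WT library.

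Libraries held between 53415907 and 125223073 counts, and 3 counts, taken as the floor of detection, came to between 0.0239 and 0.0554 CPM. Library 3 of KO1 stood apart from the other 2 of its clone, with a chi-square per degree of freedom of 268 and 317 against 40.6 between libraries 1 and 2. Library 3 of KO2 did so too, with 177 and 121 against 37.9. No pair of WT libraries was as close as libraries 1 and 2 of a clone, with 133, 97.55 and 184. Mki67, a marker of dividing cells, was at 27.7 CPM in library 3 of KO1 and at 216 and 239 CPM in the others of KO1. Of 12 epithelial and biliary markers, 10 reached 1 CPM in WT, 4 in KO1 and 3 in KO2. The summed level was 13572 to 15252, 10618 to 11078 and 7635 to 11082 CPM, but in the clones almost all of it was Spp1, at a mean of 2474 CPM in WT, 10576 in KO1 and 9640 in KO2. The keratins Krt8, Krt18 and Krt19 had means of 5377, 3408 and 2292 CPM in WT and of 0.015 to 0.405 CPM in the clones, and Cdh1 had means of 533, 1.34 and 0.525 CPM. Sox9, a factor of bile duct cells, had means of 127 CPM in WT, 232 CPM in KO1 and 170 CPM in KO2. The clones thus differed from WT in defining epithelial markers as well as in the Notch genes, and the part of this in the Notch genes was not tested. In bulk RNA, fewer cells of a type and less RNA per cell cannot be told apart.

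When the 6 knockout libraries were set against the 3 WT libraries, 4 of the 10 genes were called, against 43% of all genes. The count was 2 without WT library 2, where 6022 of 18447 genes were called, and 7 with the average of both clones' contrasts, where 10464 of 17672 were called. Notch1 was higher, with 21.7% of all genes called higher, and Notch4, Jag1 and Jag2 were lower, with 21.2% of all genes called lower. In KO1 against WT 7 of 10 were called, against 59.9% of all genes, with Notch1, Notch2 and Hes1 higher (29.9% of all genes) and Notch4, Jag1, Jag2 and Dll1 lower (30% of all genes). KO2 against WT gave 6 of 10 against 51.4% of all genes, with Notch1 and Notch3 higher (25.3% of all genes) and Jag1, Jag2, Dll4 and Hey1 lower (26.1% of all genes). Both clones were set against the same 3 WT libraries. Between the clones 6 of 10 differed, against 38.7% of all genes, with Notch2, Dll4 and Hey1 higher in KO1 (20.2% of all genes) and Notch3, Notch4 and Dll1 lower in KO1 (18.5% of all genes). A large share of all genes differed between the groups, and the 10 genes were near that background in each comparison with WT. Their share was further above it between the clones, but 10 genes are too few to tell this from the background. The 63 other pathway genes tested gave 38.1% between the clones. Without library 3 of KO1, which stood apart, the same 6 genes differed between the clones, with values of 0.90 for Notch2, -1.79 for Notch3, -1.59 for Notch4, -1.40 for Dll1, 3.22 for Dll4 and 2.25 for Hey1 on the log2 scale. Without library 3 of KO2 these 6 were called as well, in the same directions. The median log2 fold change of the 10 genes was 0.05 in the combined comparison, 0.20 in KO1 and -0.25 in KO2, beside 0.07, 0.02 and 0.00 over all genes. With only 10 genes these medians join genes that moved in opposite directions.

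**Figure D1:**
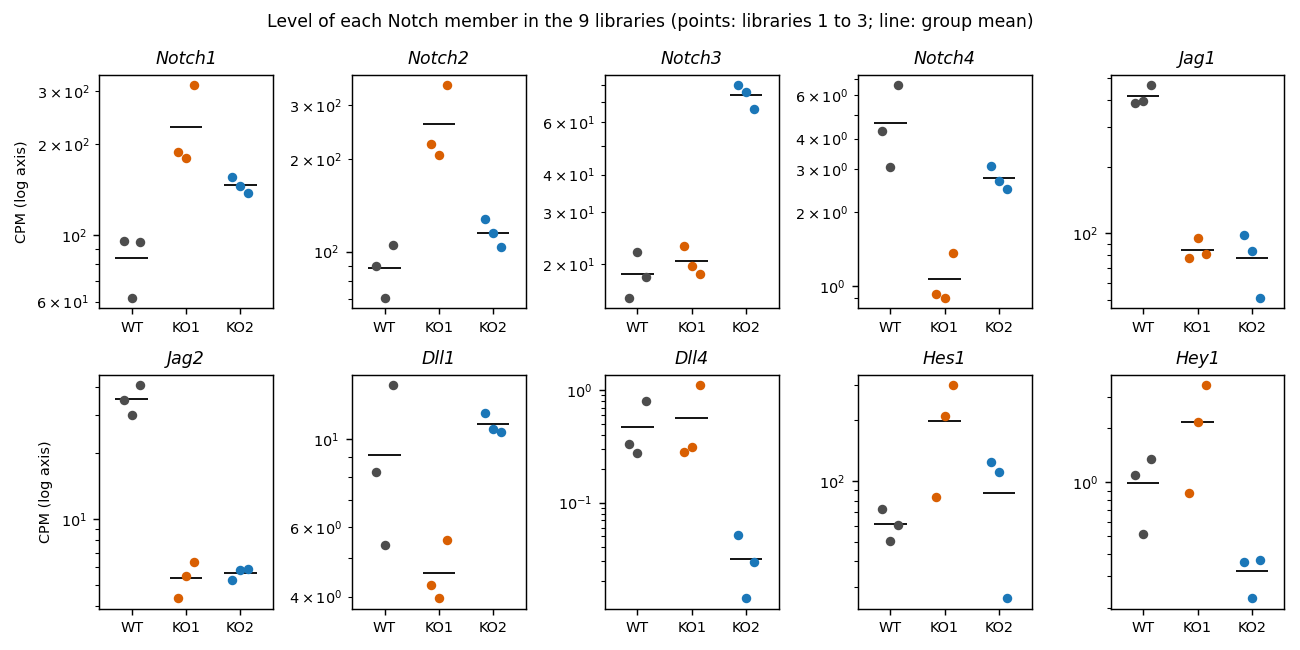
CPM of the 10 Notch genes on log axes in WT, KO1 and KO2, with 1 point for each library (1 to 3 from left to right) and a line at the group mean. Jag1 and Jag2 lie lower in all 6 knockout libraries, Notch3 is raised in the 3 KO2 libraries, and Dll4 and Hey1 lie lowest in KO2.

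Notch1 (chr2:26457903-26516663, minus strand, GRCm38) encodes a receptor used in many tissues. It stood at 95.2, 61.8 and 94.9 CPM in WT, at 188, 180 and 314 CPM in KO1 and at 156, 145 and 138 CPM in KO2. All 6 knockout libraries lay above all WT libraries. The log2 fold change against WT was 1.15 ± 0.29 (SE) for the 6 libraries together (edgeR, adjusted p = 0.01), 1.44 ± 0.24 in KO1 (adjusted p = 0.00064) and 0.80 ± 0.24 in KO2 (adjusted p = 0.018). Between the clones the difference of 0.64 had a 95% interval from 0.11 to 1.17 and missed the threshold after adjustment (edgeR, adjusted p = 0.057). WT library 2 carried the lowest Notch1 level, and without it the combined call and the KO2 call were lost, with adjusted p = 0.05 (not under the threshold) and adjusted p = 0.058 in edgeR. The KO2 call was also lost without library 1 of KO2 (edgeR, adjusted p = 0.057).

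Notch2 (chr3:98013527-98150361, plus strand), the receptor of bile duct formation, was at 89.5, 70.7 and 105 CPM in WT. KO1 held 224, 206 and 349 CPM and KO2 128, 115 and 104 CPM. The KO1 libraries lay above the other 6, while KO2 and WT overlapped only where the lowest KO2 library met the highest WT library. Notch2 rose in KO1 by 1.55 ± 0.22 on the log2 scale (edgeR, adjusted p = 0.00024), and KO2 gave 0.38 ± 0.22 (adjusted p = 0.17). The clones differed by 1.17 ± 0.22 (edgeR, adjusted p = 0.0029), and the combined comparison gave 1.08 ± 0.40 (adjusted p = 0.052). Of the annotated genes on its strand, Gm42819 and Gm42820 overlap Notch2, so its count may share reads with them.

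Notch3 (chr17:32120820-32166852, minus strand) is the receptor best known from smooth muscle cells and pericytes. Its levels were 15.5, 22.0 and 18.2 CPM in WT, 23.1, 19.7 and 18.5 CPM in KO1 and 79.8, 75.8 and 66.3 CPM in KO2. KO2 stood well above the other groups, which overlapped. In KO2 it rose 3.99-fold, with a standard error of 0.16 on the log2 scale (edgeR, adjusted p = 7.2e-06), and KO1 gave a log2 fold change of 0.14 ± 0.15 (adjusted p = 0.44). The direct comparison of the clones gave -1.85 ± 0.16 (KO1 minus KO2, edgeR, adjusted p = 3.9e-05), with 3.62-fold more in KO2. The summed level of 9 other smooth muscle and pericyte markers was 38.4 to 71.7 CPM in WT, 649 to 859 CPM in KO1 and 362 to 430 CPM in KO2. Most of it was Pdgfrb, with means of 29.4, 659 and 386 CPM. Acta2 (1.38, 49.1 and 7.44 CPM), Des (5.64, 9.38 and 10.4 CPM) and Rgs5 (0.382, 3.02 and 1.16 CPM) also had higher means in both clones. Cspg4 had means of 15.7, 0.0554 and 0.132 CPM, and Kcnj8 was lower in both clones as well. Cnn1 and Abcc9 passed 1 CPM in KO1 only, and Kcnj8 and Myh11 stayed under 1 CPM in all groups. Of these markers 4 reached 1 CPM in WT, 6 in KO1 and 4 in KO2, and their part in the level of Notch3 was not tested.

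The stretch before the start of Notch3 is shown because this was the receptor that differed most between the clones. Capitals mark matches to the N box, CACNAG, on either strand, a sequence that Hes proteins are known to bind.
Notch3, chr17:32166891-32167140, minus strand, GRCm38.p6, from RefSeq: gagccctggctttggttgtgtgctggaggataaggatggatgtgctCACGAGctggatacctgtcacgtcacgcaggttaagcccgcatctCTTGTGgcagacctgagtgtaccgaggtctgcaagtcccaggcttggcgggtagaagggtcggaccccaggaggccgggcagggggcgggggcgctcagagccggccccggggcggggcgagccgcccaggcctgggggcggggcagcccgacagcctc
This stretch of 250 bases holds 2 matches, and 42.5% of 32851 promoter windows of 300 bases hold at least 1. RefSeq windows of this kind were matched for 8 of the 10 genes, the receptors and ligands. The targets Hes1 and Hey1 had no window and were not searched. None of the 8 held the core of the RBPJ site, TGGGAA, on either strand, which 25.6% of all windows hold. A match or its absence is a description of these letters alone.

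Notch4 (chr17:34564268-34588503, plus strand), a receptor of blood vessel lining, was the least abundant of the 4. It was at 4.28, 3.06 and 6.60 CPM in WT, at 0.928, 0.897 and 1.37 CPM in KO1 and at 3.08, 2.69 and 2.48 CPM in KO2. KO1 lay below all other libraries, and the top KO2 library only just passed the lowest WT library. In KO1 it fell by 2.13 ± 0.32 on the log2 scale (edgeR, adjusted p = 0.00035), KO2 gave -0.76 ± 0.31 (adjusted p = 0.064), and the clones differed by -1.37 ± 0.32 (adjusted p = 0.0082). The combined log2 fold change of -1.28 ± 0.46 (edgeR, adjusted p = 0.046) was lost with no filter on low counts (adjusted p = 0.057) and without any 1 of the WT or KO1 libraries or library 3 of KO2, with adjusted p of up to 0.2. Of 10 endothelial markers 2 reached 1 CPM in WT, 1 in KO1 and 1 in KO2, Erg was at 0 in all WT libraries, and the summed level was 17.6 to 23.8, 5.46 to 6.99 and 2.26 to 3.15 CPM. Egfl7 and Esam made up most of the sum in WT and KO1, with means of 11.1 and 6.93 CPM in WT and 4.40 and 0.230 in KO1. In KO2 they had 1.12 and 0.157 CPM, and Pecam1 had 0.981, against 0.704 in WT. The other 8, Pecam1 among them, had means under 1 CPM in every group. Cdh5 and Vwf had lower means in both clones than in WT. Kdr, Tek, Tie1, Erg and Emcn had higher means in KO1 than in WT, with Tek at 0.142 against 0.0247 CPM. The part of these markers in the level of Notch4 was not tested.

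Levels of different genes can be compared only per length, and CPM was divided by the length in kb of the longest coding transcript for this purpose. Summed over the 4 receptors, the level per length was 21.1, 16.5 and 23.3 CPM per kb in WT, 44.2, 41.2 and 68.9 in KO1 and 39.0, 36.0 and 33.1 in KO2. Every knockout library thus held more receptor RNA than every WT library. Notch1 and Notch2 made up 43.3% ± 4.0 and 41.4% ± 1.4 (SD, n = 3) of the receptor sum in WT and 46.4% ± 1.6 and 48.0% ± 0.37 in KO1. In KO2 the share of Notch2 was 30.4% ± 0.64 and that of Notch3 25.6% ± 0.61, against 11.8% ± 4.2 for Notch3 in WT and 5.28% ± 1.7 in KO1. Notch4 held 3.40% ± 0.79 in WT, 0.317% ± 0.014 in KO1 and 1.16% ± 0.037 in KO2. The order of Notch1 and Notch2 depends on the length used, since with the length of all exons together Notch2 held 48.2% and Notch1 34.5% in WT.

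Jag1 (chr2:137081456-137116644, minus strand), the ligand of bile duct formation, was the most abundant ligand in every group. It stood at 387, 397 and 465 CPM in WT, at 77.8, 95.3 and 80.6 CPM in KO1 and at 98.4, 83.0 and 51.3 CPM in KO2. No knockout library came near the WT range. Jag1 fell by 2.36 ± 0.19 on the log2 scale in the combined comparison (edgeR, adjusted p = 1.3e-05), by 2.30 ± 0.22 in KO1 (adjusted p = 2.1e-05) and by 2.43 ± 0.22 in KO2 (adjusted p = 2.0e-05). Between the clones the difference was 0.13 with a 95% interval from -0.36 to 0.61 (edgeR, adjusted p = 0.67).

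The bases upstream of Jag1 are shown because this ligand made up most of the ligand RNA and fell in both clones. No N box was present in its window, nor the E box or the core of the RBPJ site named here, so there are no capitals.
Jag1, chr2:137116645-137116770, minus strand, GRCm38.p6, from RefSeq: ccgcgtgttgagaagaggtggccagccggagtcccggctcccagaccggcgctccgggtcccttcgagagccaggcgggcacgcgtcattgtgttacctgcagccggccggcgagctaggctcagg
These 126 bases end at the base before the annotated transcript start. The E box, CACGTG, was present in 7.15% of all promoter windows.

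Jag2 (chr12:112907819-112929776, minus strand), the second Jagged ligand, moved in the same way. Its levels were 35.0, 30.0 and 40.9 CPM in WT, 4.34, 5.46 and 6.34 CPM in KO1 and 5.28, 5.83 and 5.89 CPM in KO2. The WT libraries lay far above all 6 knockout libraries. Jag2 fell by 2.68 ± 0.16 on the log2 scale (edgeR, adjusted p = 2.7e-06), by 2.71 ± 0.18 in KO1 (adjusted p = 2.2e-06) and by 2.64 ± 0.18 in KO2 (adjusted p = 3.3e-06). The difference between the clones was -0.07 with a 95% interval from -0.47 to 0.32 (edgeR, adjusted p = 0.76). Across the 9 libraries the log2 levels of Jag1 and Jag2 had a Pearson r of 0.964, as a description of 2 genes in 3 groups that share their libraries.

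Dll1 (chr17:15367354-15376872, minus strand) encodes a Delta-like ligand. It was at 8.24, 5.39 and 13.6 CPM in WT, at 4.27, 3.97 and 5.55 CPM in KO1 and at 11.7, 10.6 and 10.4 CPM in KO2. WT was the widest group and overlapped both clones, whereas KO1 and KO2 did not overlap. The clones differed by -1.24 ± 0.31 on the log2 scale (KO1 minus KO2, edgeR, adjusted p = 0.011). Against WT, KO1 gave -0.99 ± 0.30 (edgeR, adjusted p = 0.019) and KO2 0.26 ± 0.30 (adjusted p = 0.5). The KO1 call was lost without WT library 3 or without KO1 library 2 (edgeR, adjusted p = 0.062 for each).

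Dll4 (chr2:119325784-119335962, plus strand), a Delta-like ligand known from sprouting blood vessels, was the rarest of the 10 genes. Its counts were 42, 15 and 63 in WT, or 0.335, 0.277 and 0.797 CPM. KO1 had 19, 30 and 69 counts (0.284, 0.313 and 1.10 CPM) and KO2 had 3, 1 and 2 counts (0.0514, 0.0141 and 0.0296 CPM). KO1 overlapped WT, and KO2 lay below both at or near the floor. From the counts, 6 in KO2 against 120 in WT, Dll4 was 15.2-fold lower in KO2, with a 95% exact interval of 6.78 to 42.3 that covers counting error only. The test gave adjusted p = 0.0034 for KO2 against WT and adjusted p = 0.0041 for KO1 against KO2 in edgeR. In KO1 against WT the log2 fold change was 0.25 ± 0.61 (edgeR, adjusted p = 0.74), and it was -0.65 without library 3 of KO1. The endothelial markers, given with Notch4, had a summed level that was lower in both clones. Egfl7 and Esam carried this fall, while Kdr, Tek, Tie1, Erg and Emcn had higher means in KO1 than in WT, and Pecam1 in KO2. The part of these markers in the level of Dll4 was not tested.

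Per length, the 4 ligands together stood at 78.3, 78.2 and 94.9 CPM per kb in WT, at 16.0, 19.2 and 17.4 in KO1 and at 21.8, 18.9 and 13.2 in KO2. The ligand sum was thus far above the receptor sum in WT and below it in every knockout library. Jag1 held 88.7% ± 1.6 (SD, n = 3) of the ligand sum in WT, 85.8% ± 3.1 in KO1 and 75.9% ± 5.9 in KO2. As the Jagged ligands fell, the share of Dll1 was 2.96% ± 1.0 in WT, 7.37% ± 1.6 in KO1 and 17.5% ± 3.9 in KO2.

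**Figure D2:**
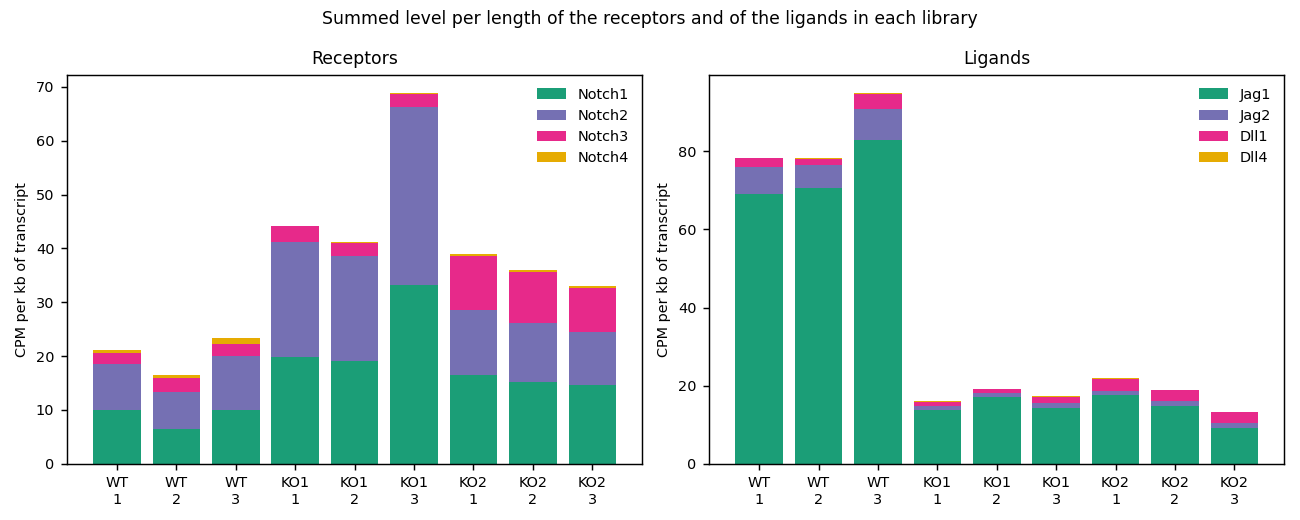
Summed level per length (CPM per kb of the longest coding transcript) of the 4 receptors, left, and of the 4 ligands, right, as stacked bars for each of the 9 libraries. Receptor sums run from 16.5 to 23.3 in WT and from 33.1 to 68.9 in the clones, and ligand sums from 78.2 to 94.9 in WT and from 13.2 to 21.8 in the clones.

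Hes1 (chr16:30064384-30067796, plus strand), a repressor that is a direct target of Notch in many cells, varied widely between passages. It was at 72.4, 50.2 and 60.6 CPM in WT, at 83.7, 211 and 297 CPM in KO1 and at 125, 110 and 26.3 CPM in KO2. KO1 lay above WT in each library, while KO2 held 2 libraries above the WT range and 1 below it. The log2 fold change was 1.69 ± 0.57 in KO1 (edgeR, adjusted p = 0.027), 0.51 ± 0.56 in KO2 (adjusted p = 0.47) and 1.22 ± 0.62 for both together (adjusted p = 0.14). The clones differed by 1.18 with a 95% interval from -0.08 to 2.44 (edgeR, adjusted p = 0.12). The KO1 call was lost with limma-voom (adjusted p = 0.054) and in edgeR without any 1 WT library or without library 2 or 3 of KO1, with adjusted p of up to 0.094. KO2 library 3, with the lowest Hes1, held 332 CPM of Mki67 against 178 and 180 CPM in the other KO2 libraries, and KO1 library 3, with the highest Hes1, held the lowest Mki67. The part of cell division in these levels was not tested.

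Hey1 (chr3:8663359-8667256, minus strand), a second repressor downstream of Notch, was rare throughout. Its levels were 1.09, 0.517 and 1.35 CPM in WT, 0.868, 2.16 and 3.46 CPM in KO1 and 0.360, 0.226 and 0.370 CPM in KO2. KO2 lay below all other libraries, and KO1 overlapped WT. The clones differed by 2.76 ± 0.56 on the log2 scale (edgeR, adjusted p = 0.0042). Against WT, KO1 gave 1.12 ± 0.51 (edgeR, adjusted p = 0.085) and KO2 -1.64 ± 0.55 (adjusted p = 0.03). The KO2 call was lost with limma-voom (adjusted p = 0.064) and in edgeR without library 1 or 3 of WT or without any 1 KO2 library, with adjusted p of up to 0.1. Dll4 and Hey1 had a Pearson r of 0.897 over the 9 libraries, and both were highest in KO1 library 3.

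**Figure D3:**
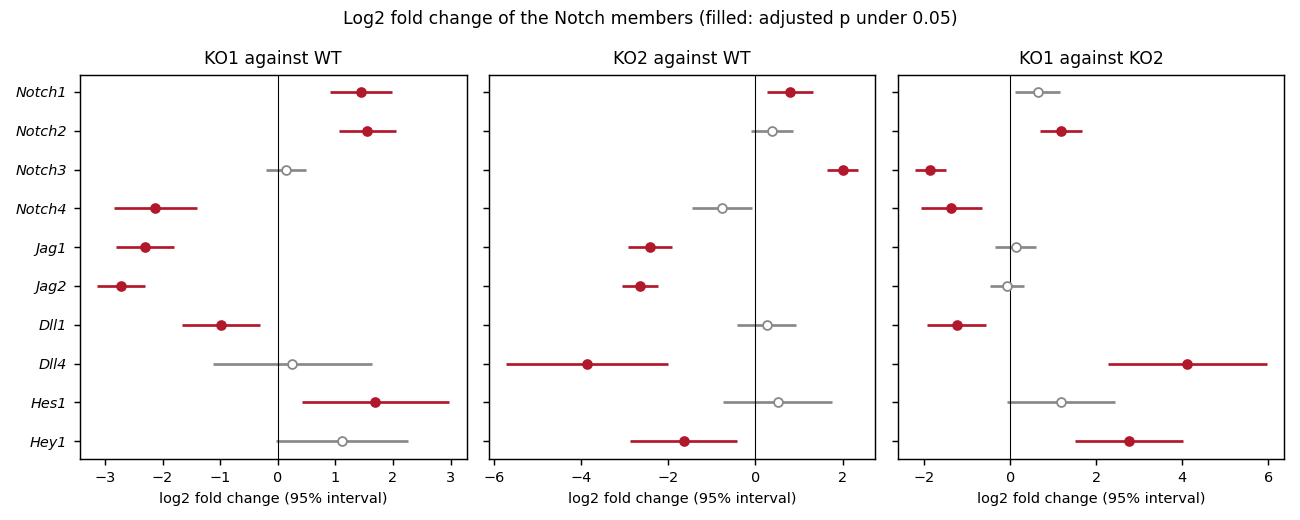
Log2 fold change of the 10 genes with 95% intervals in KO1 against WT, KO2 against WT and KO1 against KO2, filled where the adjusted p was under 0.05. Jag1 and Jag2 lie at -2.30 and -2.71 in KO1 and at -2.43 and -2.64 in KO2, and the clones differ at Notch2, Notch3, Notch4, Dll1, Dll4 and Hey1.

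The groups of libraries did not overlap for 3 of the 10 genes in the combined comparison (44.2% of all genes), for 6 in KO1 against WT (66% of all genes), for 6 in KO2 against WT (62.1% of all genes) and for 7 between the clones (54.9% of all genes). Per length, Jag1 led in WT with 74.2 CPM per kb, followed by Hes1 with 41.6, Notch1 with 8.85, Notch2 with 8.43, Jag2 with 6.92, Dll1 with 2.54, Notch3 with 2.31, Notch4 with 0.705, Hey1 with 0.407 and Dll4 with 0.125. Of these neighbors, Notch1, Notch2 and Jag2 overlapped between libraries, as did Dll1 with Notch3 and Notch4 with Hey1. In KO1 and KO2 Hes1 led, with 134 and 59.3 CPM per kb. Jag1 came after Notch2 and Notch1 in KO1, at 15.1 CPM per kb, and stood at 13.8 in KO2, where its libraries overlapped those of Notch1 and Notch2.

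Of all tested genes, the one whose log2 level followed each of the 10 most closely over the 9 libraries was Abl1 for Notch1 (r = 0.991), Trak1 for Notch2 (r = 0.997), Hs6st2 for Notch3 (r = 0.992) and Dgka for Notch4 (r = 0.99). For the ligands it was Nid1 for Jag1 (r = 0.997), Ctse for Jag2 (r = 0.997), Plxna3 for Dll1 (r = 0.99) and Epas1 for Dll4 (r = 0.984). For the targets it was Gm43011 for Hes1 (r = 0.976) and Scaf1 for Hey1 (r = 0.977). Each is the top of 17672 genes over 9 libraries in 3 groups, and so describes the pattern only.

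Of 70 other genes of the pathway, 63 were tested. In the combined comparison 20 were higher and 12 lower, or 50.8% against 43% of all genes, with a median log2 fold change of 0.12. In KO1 28 were higher and 18 lower, or 73% against 59.9% of all genes, with a median of 0.35. In KO2 19 were higher and 17 lower, or 57.1% against 51.4% of all genes, with a median of 0.21. Between the clones 12 were higher and 12 lower in KO1, or 38.1% against 38.7% of all genes, with a median of 0.14. The counts by role below are from the combined comparison, in which 21.7% of all genes were called higher and 21.2% lower, and the groups are too small to read against those shares one by one.

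**Figure D4:**
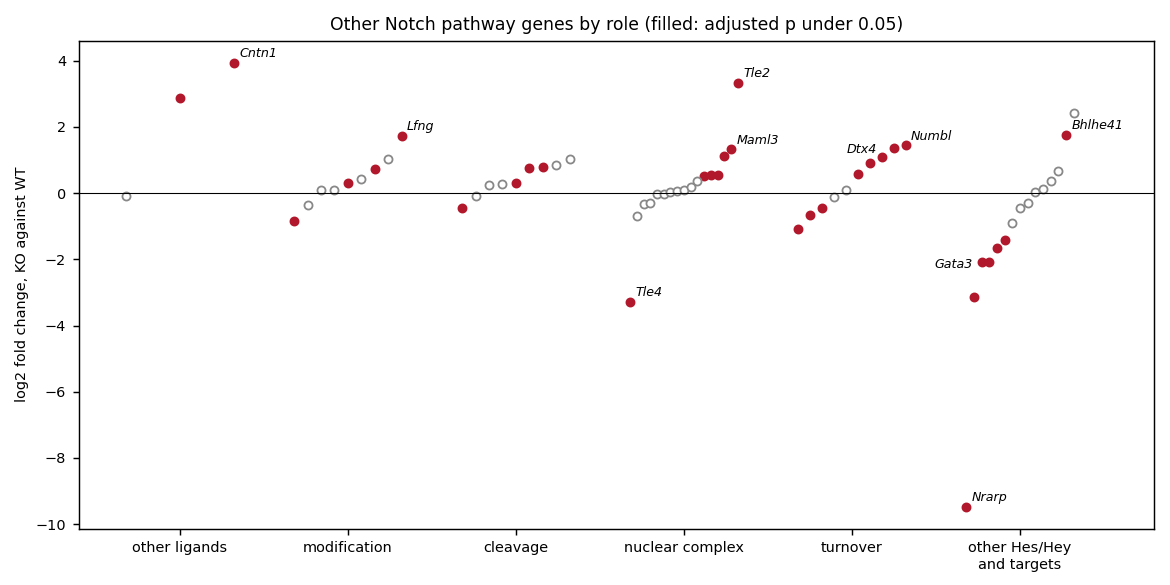
Log2 fold change (6 knockout against 3 WT libraries) of 63 other Notch pathway genes by role, filled where the adjusted p was under 0.05. The point of Nrarp, at -9.47, depends on a small added count because its knockout libraries hold almost no reads.

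Among other ligands 2 of 3 tested were higher and 0 lower. Cntn1, a neural adhesion protein reported as a Notch ligand, rose by 3.93 ± 0.38 on the log2 scale (edgeR, adjusted p = 4.7e-05), from 0.287, 0.332 and 0.266 CPM in WT to between 2.80 and 6.66 CPM in the knockout libraries.

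Of the genes that modify ligands and receptors 3 of 9 were higher and 1 lower. Lfng, a fringe enzyme that adds sugar to Notch and favors Delta-like ligands, rose from 4.78, 4.32 and 6.26 CPM in WT to between 11.4 and 21.9 CPM, by 1.73 ± 0.27 on the log2 scale (edgeR, adjusted p = 0.00083). Rfng, a related enzyme, rose by 0.72 ± 0.16 (edgeR, adjusted p = 0.005). Mib2, a ubiquitin ligase that helps ligands work, fell by 0.86 ± 0.19 on the log2 scale (edgeR, adjusted p = 0.0058). Neurl1a, a ligase of the same function that was chosen after its values were seen, was at 39.5, 35.0 and 52.3 CPM in WT, at 3.02, 2.18 and 0.670 CPM in KO1 and at 54.5, 55.7 and 81.7 CPM in KO2. It thus fell in KO1, by 4.42 ± 0.47 on the log2 scale (edgeR, adjusted p = 3.7e-05), and KO2 gave 0.60 ± 0.40 (adjusted p = 0.24).

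Of 9 cleavage genes, among them the close copies Aph1b and Aph1c, 3 were higher. Ncstn, a gamma-secretase subunit, rose by 0.78 ± 0.14 on the log2 scale (edgeR, adjusted p = 0.0015), and Adam17, a protease of the first cut, rose by 0.76 ± 0.10 (adjusted p = 0.00036). These changes were small, and neither gene differed between the clones past the threshold.

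Of 17 genes of the nuclear complex 6 were higher and 1 lower. Rbpj, the DNA-binding partner of Notch, chosen after its values were seen, was at 110, 140 and 125 CPM in WT, at 40.3, 36.1 and 31.0 CPM in KO1 and at 138, 124 and 98.5 CPM in KO2. It fell in KO1 by 1.80 ± 0.16 on the log2 scale (edgeR, adjusted p = 1.2e-05), while KO2 gave -0.05 ± 0.16 (adjusted p = 0.8), and the clones differed (adjusted p = 6.4e-05). Rbpj was thus lower in KO1, the clone with more Notch2. Maml2, a Mastermind-like co-activator, rose in KO1 by 0.66 ± 0.22 (edgeR, adjusted p = 0.024) and fell in KO2 by 1.18 ± 0.22 on the log2 scale (adjusted p = 0.0015). The KO1 call was lost without library 1 or 2 of WT or library 1 or 3 of KO1, with adjusted p of up to 0.11 in edgeR. Maml3, of the same family, rose by 1.33 ± 0.27 (edgeR, adjusted p = 0.0035). Tle4 and Tle2 are Groucho-type co-repressors that work with Hes proteins. Tle4 was at 36.4, 32.6 and 38.5 CPM in WT, at 2.43, 2.75 and 2.59 CPM in KO1 and at 5.21, 4.92 and 4.19 CPM in KO2, and it fell by 3.28 ± 0.27 on the log2 scale (edgeR, adjusted p = 1.7e-05). Tle2 rose from 13.9, 7.86 and 17.4 CPM to 125, 135 and 346 CPM in KO1 and 67.5, 59.0 and 58.8 CPM in KO2, by 3.34 ± 0.70 (edgeR, adjusted p = 0.0041).

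Of 10 genes of receptor turnover 5 were higher and 3 lower. Numb, an inhibitor of Notch, fell by 0.66 ± 0.13 on the log2 scale (edgeR, adjusted p = 0.0032), and its relative Numbl rose by 1.45 ± 0.28 (adjusted p = 0.0028). Dtx4, a Deltex ubiquitin ligase, rose by 1.38 ± 0.24 (edgeR, adjusted p = 0.0017), and Ccnc, the cyclin that acts with Cdk8 on the intracellular part of Notch, fell by 1.10 ± 0.21 on the log2 scale (adjusted p = 0.0029).

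Of 15 other Hes and Hey genes and known targets 1 was higher and 6 lower. Nrarp, a direct Notch target whose protein damps the pathway, had 3147, 1761 and 1908 counts in WT (25.1, 32.5 and 24.1 CPM), 11, 0 and 2 counts in KO1 and 2, 0 and 0 counts in KO2. In KO2 it was 2591-fold lower by counts, 2 against 6816, with a 95% exact interval of 717 to 21396 for counting error only. Both clones were called lower (edgeR, adjusted p = 9.5e-06 in KO1 and 8.9e-06 in KO2), in the same libraries in which Notch1 was higher.

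The stretch before Nrarp is shown because this target was nearly lost in both clones, with the N box matches and 1 E box in capitals.
Nrarp, chr2:25180508-25180757, plus strand, GRCm38.p6, from RefSeq: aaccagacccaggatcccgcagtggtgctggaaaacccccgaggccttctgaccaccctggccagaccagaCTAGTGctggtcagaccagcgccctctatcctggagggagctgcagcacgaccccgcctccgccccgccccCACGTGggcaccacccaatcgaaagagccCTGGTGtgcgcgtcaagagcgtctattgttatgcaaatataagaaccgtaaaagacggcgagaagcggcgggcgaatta
It holds 2 N box matches and the 1 E box, and no match to the core of the RBPJ site.

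Hey2 and Heyl, the other Hey repressors, were higher in KO1 than in KO2, as Hey1 was (edgeR, adjusted p = 0.00093 and 0.00085). Heyl was at 0.869, 0.424 and 0.911 CPM in WT, at 1.44, 1.33 and 1.32 CPM in KO1 and at 0.308, 0.226 and 0.177 CPM in KO2. It rose in KO1 by 0.88 ± 0.34 (edgeR, adjusted p = 0.047), a call lost in 11 of 15 alternatives, and fell in KO2 by 1.64 ± 0.37 on the log2 scale (adjusted p = 0.0044). Hey2, chosen after its values were seen, was at 0.0478, 0.0554 and 0.0379 CPM in WT and 0.225, 0.365 and 0.926 CPM in KO1, and KO2 held 1 count in its 3 libraries. The WT libraries held only 3 to 6 counts of Hey2 each, at or near the floor. Hey2 rose in KO1 (edgeR, adjusted p = 0.0017), and KO2 against WT did not pass the test (adjusted p = 0.07). By counts, 1 against 12, the level in KO2 was 9.12-fold lower, with a 95% exact interval of 1.35 to 390 for counting error only. Bhlhe41, a repressor related to the Hes genes, rose by 1.76 ± 0.29 (edgeR, adjusted p = 0.0011). Gata3, a transcription factor under Notch control in T cells, fell by 2.09 ± 0.42 on the log2 scale (edgeR, adjusted p = 0.0035).

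**Figure D5:**
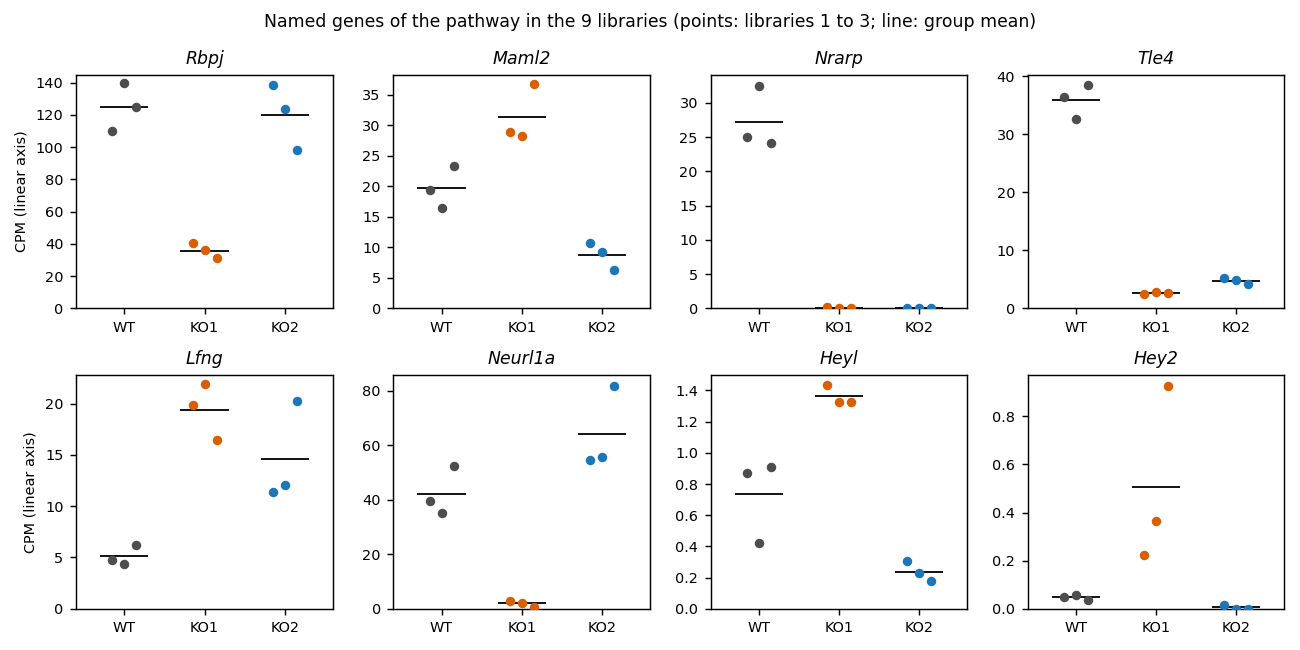
CPM on linear axes of 8 named pathway genes in WT, KO1 and KO2, with 1 point for each library and a line at the group mean. Nrarp and Tle4 lie near 0 or far below WT in both clones, Rbpj and Neurl1a are low in KO1, and Maml2, Heyl and Hey2 lie higher in KO1 than in KO2.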

How the data were processed

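Polyadenylated RNA of 9 libraries was sequenced in stranded, paired-end libraries. The authors estimated counts with kallisto 0.46.1 on GENCODE transcripts of GRCm38 (mm10), and the deposited table holds estimated counts per gene symbol, not normalized. The step that summed transcripts to symbols is not given in the sources used here. All values were whole numbers and were used as counts.

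Counts were scaled with TMM, filtered with filterByExpr (17672 genes left) and tested with edgeR 4.0.16 in R 4.3.3 (quasi-likelihood test, Benjamini-Hochberg adjustment, threshold 0.05). The 6 knockout libraries were set against WT in a 2-group fit that counts clone differences as spread, and the other 3 comparisons came from a fit with 3 groups. The study used TMM with limma-voom. Correlations used log2 CPM with a prior count of 2. Exact intervals (95%) and the floor of 3 counts cover counting error only. With at least 53415907 counts a library, the spread between libraries set the precision of all but the rarest genes.

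Libraries were grouped by their labels and numbered in label order. The 10 genes and all lists were chosen with earlier results of these data known. Named among other pathway genes were, for each role, up to 2 with the largest increase and 2 with the largest decrease among those called in the combined comparison (mean over all libraries 1 CPM or more), and those called in opposite directions in the clones. Some items that this rule or the labels name are not reported here. Of 8 haematopoietic markers 2 reached 1 CPM in WT, 3 in KO1 and 1 in KO2, with summed levels of 7.64 to 20.8, 9.09 to 12.0 and 7.01 to 9.72 CPM. Of 7 hepatocyte markers 4, 1 and 0 did, with 252 to 440, 1.57 to 3.02 and 0.281 to 0.531 CPM.

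Alternatives were limma-voom 3.58.1, DESeq2 1.42.0, RLE and upper-quartile normalization, the average of both clones' contrasts against WT, no filter or one at 1 CPM on average, dropping single libraries, and the length of all exons together. Gene positions and lengths are from GENCODE vM21, another release than that of the counts, and promoter windows (250 bases before to 50 after a start) from RefSeq on GRCm38.p6, shown only outside annotated transcripts. Figures were drawn with matplotlib 3.10.9.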

Additional observations from a re-analysis of the deposited data

Results flagged for a closer look

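The clones differed from each other at 18 of the named genes by a direct test (edgeR's quasi-likelihood test, Benjamini-Hochberg adjusted p under 0.05), and 38.7% of all genes did. Maml2 and Heyl were named because their calls were opposite in the clones, and Rbpj, Hey2 and Neurl1a after their values were seen. The count of 18 can therefore not be read against that share. Of the 63 other pathway genes tested, 38.1% differed between the clones. As log2 differences of KO1 minus KO2, the receptors gave 1.17 for Notch2, -1.85 for Notch3 and -1.37 for Notch4. The ligands gave -1.24 for Dll1 and 4.12 for Dll4, and Hey1 gave 2.76. In KO2 Dll4 held 6 counts, so that its fitted difference depends on the prior count.

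Among the other genes of the pathway, the Hey repressors were higher in KO1, by 6.21 for Hey2 (1 count in KO2, so also dependent on the prior count) and 2.52 for Heyl. The nuclear complex gave -1.75 for Rbpj, 1.84 for Maml2, 1.71 for Tle2 and -0.88 for Tle4. Of the modifying enzymes, Neurl1a gave -5.02 and Rfng 0.35, and the call of Rfng was lost in 9 of 16 alternatives. The turnover genes Numbl and Dtx4 gave 0.74 and -0.60, with the call of Dtx4 lost in 4 of 16, and Bhlhe41 and Gata3 gave 0.80 and -1.35. With 1 clone for each arm, these differences cannot be told apart from clone-to-clone variation of the line.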

How the results depend on the processing

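No paired analysis was possible because the labels give the groups no shared replicate numbers. Counts of called genes kept within 1.5 times the reported count in 126 cases and left it in 2, both for the 10 Notch genes in knockout against WT, where 4 were called. The average of the clones' contrasts called 7, as differences between clones no longer counted as spread (10464 of all 17672 genes were called there), and leaving out 1 library gave 2 to 5, with 2 called without WT library 2. Jag1 and Jag2 against WT, and Notch3 in KO2, were called in all alternatives. Of the values of single genes, 1991 were counted as unchanged, 54 lost the call, 27 gained it and 33 changed sign. Unchanged meant the same direction and side of the threshold for a fold change. For a WT level per length it meant a shift smaller than the SD of the WT libraries, and 3 such levels moved further. The cause of these changes was not tested. For knockout against WT, Hey1 (0.33) gave -0.28 with limma-voom and -0.26 with averaged contrasts, and Heyl (0.12) gave -0.32 and -0.38. Maml2 (0.02) gave -0.26 with limma-voom, -0.027 with both DESeq2 and RLE, -0.045 with no filter and -0.26 with averaged contrasts. Ncstn between the clones (-0.05) gave 0.018 with upper-quartile normalization. Leaving out 1 library gave log2 values, for knockout against WT, of -0.54 to 0.18 for Dll1, -0.30 to 0.61 for Hey1, -0.24 to 0.16 for Maml2 and -0.21 to 0.31 for Heyl. It gave -0.65 to 0.85 for Dll4 in KO1, and -0.033 to 0.67 for Dll1 and -0.17 to 0.057 for Rbpj in KO2. Between the clones it gave -0.14 to 0.29 for Jag1, -0.21 to 0.012 for Jag2, -0.071 to 0.18 for Vcam1, -0.66 to 0.043 for Cntn1 and -0.052 to 0.29 for Mib2. None of these sign changes concerned a called value. With the length of all exons together, the WT level per kb was 5.90 for Notch1, 5.07 for Jag2 and 30.0 for Hes1. Genes near the floor, Dll4 in KO2, Hey2 in WT and KO2 and Nrarp in both clones, are limited by depth.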
